A study of Mus musculus with 4 samples.

Results

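The 9 genes described here are the mouse orthologs of genes best known from Alzheimer's disease, and they cover amyloid, tau and lipoproteins. They are App, which encodes the amyloid precursor protein; Adam10, Bace1 and Psen2, which encode an enzyme or enzyme subunit that cuts it; Apbb1, an adaptor of its cytoplasmic tail; Mapt, which encodes tau; the apolipoprotein genes Apoe and Clu; and Lrp1, a large receptor that takes up both apolipoprotein E and amyloid-β. They were chosen by gene symbol, each symbol matched 1 row of the 29300 genes in the deposited table, and all 9 were among the 17144 genes with enough counts to be tested.

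The amyloid precursor protein is a membrane protein of neurons that is cut in alternative ways. A cut by α-secretase, for which ADAM10 is the main enzyme in neurons, falls within the amyloid-β stretch, so that no amyloid-β forms. A cut by the β-secretase BACE1 followed by γ-secretase, a complex in which a presenilin such as PSEN2 is the catalytic subunit, releases amyloid-β. Tau binds and stabilizes the microtubules of axons and forms tangles when it is heavily phosphorylated. Apolipoprotein E, made mostly by astrocytes in the brain, and clusterin, the product of Clu, carry lipids between cells, and both bind amyloid-β.

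The samples were the hippocampi of 2 control mice and 2 mice with a perioperative neurocognitive disorder (PND) model, 1 library per mouse. All were male wild-type C57BL/6 mice of 7 to 8 months, all were anesthetized with 2.1% isoflurane and given 30 mg/kg tramadol, and tissue was taken on day 1 after the operation. The PND mice had an open tibial fracture that was pinned, and the control mice, labelled sham, had anesthesia and analgesia without a fracture. The comparison thus covers the operation as a whole, on top of anesthesia and analgesia that both groups had.

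Library totals ran from 15763432 to 18573386 counts over 24238 to 25324 detected genes, and the 9 genes together made up 0.677% and 0.735% of them in control mice, against 0.615% and 0.622% in PND mice. Transcripts of the mitochondrial genome made up 3.05% and 2.70% in control mice, against 5.10% and 5.14% in PND mice. All 8 neuronal and 7 hippocampal principal neuron markers were above 0 in every library. Levels are given as CPM, the counts scaled to a common library size. The 7 choroid plexus markers summed to 294 and 6952 CPM in the control mice and to 2701 and 4326 CPM in the PND mice, so their spread was widest between the control mice. In tissue of mixed cells, fewer cells of a type and less RNA per cell cannot be told apart.

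The stretch of App that encodes amyloid-β is shown first, since the enzymes in this set cut at its ends or within it. It spans 126 bases, or 42 codons, on the minus strand of chromosome 16 of mm10, in exons 15 and 16 of the 17 exons of a transcript of 3299 nt (GENCODE M21), at chr16:84965670-84965720 and chr16:84962794-84962868. The capitals mark the codons on either side of the α-secretase cut. The deposited counts are per gene, so they do not say how many reads fell on this stretch.
App, amyloid-β stretch: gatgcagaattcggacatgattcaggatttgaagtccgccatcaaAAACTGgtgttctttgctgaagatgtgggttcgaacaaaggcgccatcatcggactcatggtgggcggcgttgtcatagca

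The promoters of 3 of the genes that passed the test below are shown because these genes moved in opposite directions. RefSeq windows (GRCm38.p6, the assembly of mm10) were at hand for 6 of the 9 genes, and the 250 bases before the annotated start were searched on both strands for the GC box GGGCGG, or its reverse complement CCGCCC, which is the core of the site that Sp1 binds. The capitals mark the matches, and in Adam10 the last 2 of the 3 matches share a base. The windows lie at chr16:85173708-85173957 on the minus strand for App, at chr9:70678732-70678981 on the plus strand for Adam10 and at chr10:127621149-127621398 on the minus strand for Lrp1.
App promoter: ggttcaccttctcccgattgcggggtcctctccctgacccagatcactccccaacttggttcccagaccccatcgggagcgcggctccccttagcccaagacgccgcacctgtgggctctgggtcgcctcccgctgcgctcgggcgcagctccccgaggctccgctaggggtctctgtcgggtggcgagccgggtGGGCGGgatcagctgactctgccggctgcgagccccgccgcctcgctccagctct
Adam10 promoter: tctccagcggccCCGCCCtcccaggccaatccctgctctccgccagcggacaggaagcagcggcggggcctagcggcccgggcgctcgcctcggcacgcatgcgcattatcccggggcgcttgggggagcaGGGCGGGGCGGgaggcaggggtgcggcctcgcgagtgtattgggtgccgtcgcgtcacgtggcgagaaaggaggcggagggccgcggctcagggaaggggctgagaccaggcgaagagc
Lrp1 promoter: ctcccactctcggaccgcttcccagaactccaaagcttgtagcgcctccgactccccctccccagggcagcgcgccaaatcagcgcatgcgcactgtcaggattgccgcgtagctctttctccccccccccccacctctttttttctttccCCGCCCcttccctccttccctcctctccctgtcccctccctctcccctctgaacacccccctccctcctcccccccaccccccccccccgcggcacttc

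The App window had a GC content of 70.8% and 1 match, the Adam10 window 74.0% and 3 matches, and the Lrp1 window 67.2% and 1 match. Apbb1, which also passed the test, has 3 annotated windows and is not shown. Of the 11 windows of the 6 genes, 5 held the motif, beside 10756 of all 32851 mouse windows (32.7%), whose median GC content was 52.4%. A match was present for genes called lower (App and Lrp1), for Adam10, called higher, and in 1 of the 2 windows of Psen2, which was not called. Of the 3 windows of Apbb1, which was called lower, 1 held a match.

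Per length of transcript, the 9 genes spanned more than 2 orders of magnitude in the hippocampus. The level of each gene was expressed as RPKM, here its CPM divided by the length in kb of its longest coding transcript within the deposited coordinates. Apoe was highest, with 1211 and 1377 RPKM in the control mice and 1201 and 1299 RPKM in the PND mice. App followed with 664 and 676 RPKM in the control mice and 542 and 532 RPKM in the PND mice, and Clu with 517 and 615 RPKM and 539 and 508 RPKM. The ranges of App and Clu overlapped, and Clu stood above App when the length of all annotated exons was used instead, since App has a long alternative transcript. Below them came Apbb1 (113 to 175 RPKM over the 4 mice), Mapt (90.7 to 109.7 RPKM), Lrp1 (39.6 to 65.0 RPKM), Adam10 (12.6 to 18.7 RPKM), Bace1 (12.5 to 13.6 RPKM) and Psen2 (7.64 to 10.2 RPKM). Among these, only Adam10 and Bace1 overlapped: their levels lay together in the control mice, while Adam10 was above Bace1 in both PND mice.

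**Figure D1:**
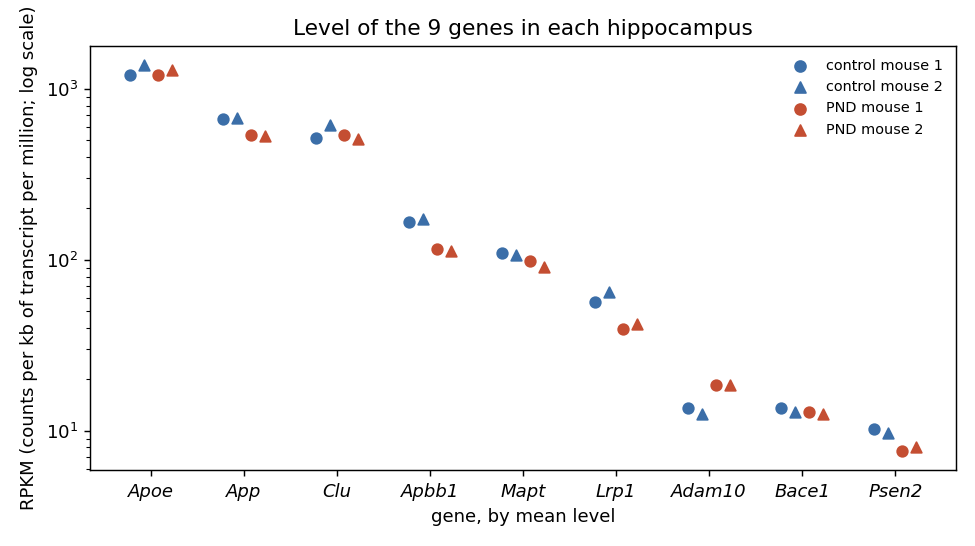
Level of the 9 genes in each mouse, in RPKM on a log axis, with the genes ordered by their mean; circles are mouse 1 and triangles mouse 2 of each group, control in blue and PND in red. Apoe lies highest and Psen2 lowest in all 4 mice, and the red symbols of Adam10 lie above its blue ones while those of App, Apbb1 and Lrp1 lie below.

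The comparison of PND with control mice asks whether the operation changed the level of these transcripts. With edgeR's quasi-likelihood test and adjustment over all 17144 genes, App, Apbb1 and Lrp1 fell in PND mice and Adam10 rose, while Bace1, Psen2, Mapt, Apoe and Clu did not pass the test at an adjusted p under 0.05. The 3 of 9 genes called lower stand beside 12.8% of all tested genes, and the 1 called higher beside 13.1%. The median log2 fold change of the 9 genes was -0.19, against 0.01 for all tested genes, with a median standard error of 0.14 for a gene. The groups did not overlap for 6 of the 9 genes, 5 with both PND mice below both control mice, as for 32.2% of all tested genes, and 1 with both above, as for 33.2%.

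None of the 9 genes was a differentially expressed gene (DEG), that is, past the adjusted p and with a ratio of 1.5 or more, or of 0.67 or less. Lower DEGs made up 2.25% of tested genes. The fold changes of Lrp1 (0.67005) and Apbb1 (0.673) lay just above the limit, and both passed it with DESeq2, where the count was 2. At an unadjusted p under 0.05, 6 of the 9 genes differed, the 4 above with Psen2 and Mapt, beside 39.4% of all tested genes, and none of the 6 passed the fold limit.

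**Figure D2:**
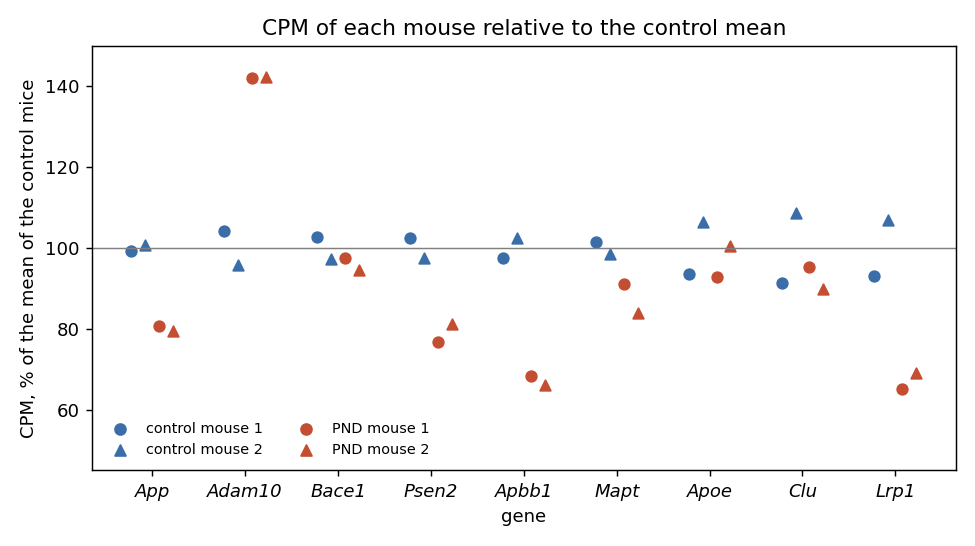
CPM of each mouse as a percent of the mean of the 2 control mice, for each of the 9 genes; circles are mouse 1 and triangles mouse 2 of each group, control in blue and PND in red. Both PND mice lie below both control mice for App, Psen2, Apbb1, Mapt and Lrp1 and above them for Adam10, and the groups overlap for Bace1, Apoe and Clu.

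App, the precursor (ENSMUSG00000022892, chr16:84954440-85173707, minus strand), had 2192 and 2229 CPM in the control mice and 1786 and 1755 CPM in the PND mice. The mice of each group lay close together, with a standard deviation of 26.5 CPM in the control mice and 22.4 CPM in the PND mice (n = 2 each), and the groups did not overlap. The fold change was 0.801, a log2 fold change of -0.32 (standard error 0.06) and an edgeR adjusted p of 0.0107. When each library's trends with the GC content and length of transcripts were entered in the model as offsets, the log2 fold change of App was -0.22, with an edgeR adjusted p of 0.0945. App was among the most abundant genes of the table, above 99.9% of tested genes in mean CPM. The 8 neuronal markers, of which 2 were called lower and 1 higher, summed to 6830 and 6597 CPM in the control mice and to 6371 and 6007 CPM in the PND mice, and the 7 markers of hippocampal principal neurons, of which 3 were called lower and 2 higher, to 1139 and 1032 CPM in the control mice and to 1004 and 910.8 CPM in the PND mice. For both lists the PND sums were below the control sums, and the part of these differences in the levels of App and Apbb1 was not tested.

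Adam10, the α-secretase (ENSMUSG00000054693, chr9:70678997-70780229, plus strand), moved the other way. It had 62.9 and 57.8 CPM in the control mice and 85.7 and 85.8 CPM in the PND mice, so that both PND mice stood above both control mice. The fold change was 1.42, a log2 fold change of 0.51 (standard error 0.07) and an edgeR adjusted p of 0.00638. With these offsets the log2 fold change was 0.14 with an edgeR adjusted p of 0.283, and over all tested genes in the same eighth by GC content as Adam10 the median log2 fold change was 0.60.

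Bace1, the β-secretase (ENSMUSG00000032086, chr9:45838580-45864399, plus strand), had 82.4 and 78.0 CPM in the control mice and 78.3 and 75.8 CPM in the PND mice, and the groups overlapped. Its log2 fold change was -0.06 with a 95% interval from -0.22 to 0.11, and its edgeR adjusted p was 0.585. Of the exonic bases of Bace1, 32.5% overlap genes on the opposite strand (Rnf214, Gm16536 and Gm49338), and whether the counting used strand is not given in the sources used here, so its counts may include reads of those genes. The others of the set share none of their exonic bases with another gene, except for 113 bases (0.9%) of App.

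Psen2, the catalytic subunit (ENSMUSG00000010609, chr1:180227004-180263438, minus strand), was the least abundant of the set. It had 20.6 and 19.6 CPM in the control mice and 15.4 and 16.3 CPM in the PND mice, from 246 to 358 counts per mouse. The groups did not overlap, but with a log2 fold change of -0.34, a standard error of 0.11 and an edgeR adjusted p of 0.0688, Psen2 missed the threshold. With the offsets the log2 fold change of Psen2 was -0.08, with an edgeR adjusted p of 0.715.

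Apbb1, which encodes the adaptor FE65 (ENSMUSG00000037032, chr7:105558483-105581653, minus strand), had 479 and 502 CPM in the control mice and 336 and 324 CPM in the PND mice. Both PND values were below both control values. The log2 fold change was -0.57 with a standard error of 0.06 and an edgeR adjusted p of 0.00446. With the offsets it was -0.19, with an edgeR adjusted p of 0.105.

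Mapt (ENSMUSG00000018411, chr11:104231390-104332090, plus strand) had 576 and 558 CPM in the control mice and 516 and 476 CPM in the PND mice. The groups did not overlap, and the lower PND mouse stood further from the other PND mouse than the control mice stood from each other. The log2 fold change was -0.19 with a standard error of 0.06 and an edgeR adjusted p of 0.0685. Without PND mouse 1 the adjusted p was 0.0364, and without PND mouse 2 it was 0.281, and DESeq2 gave 0.0348 with all 4 mice, so that the call of Mapt rested on the choice of mice and of test. For Mapt the offsets left a log2 fold change of -0.03, with an edgeR adjusted p of 0.816.

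Apoe (ENSMUSG00000002985, chr7:19696109-19699188, minus strand) had 1706 and 1939 CPM in the control mice and 1691 and 1829 CPM in the PND mice. The groups overlapped, and the control mice differed from each other by more than the group means did. The log2 fold change was -0.05 with a 95% interval from -0.25 to 0.15 and an edgeR adjusted p of 0.694. With the offsets it was 0.31, above that interval, with an edgeR adjusted p of 0.0951. The 8 astrocyte markers, of which 2 were called lower and 3 higher, summed to 4705 and 4638 CPM in the control mice and to 5005 and 4760 CPM in the PND mice.

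Clu (ENSMUSG00000022037, chr14:65968483-65981547, plus strand) had 936 and 1113 CPM in the control mice and 976 and 920.1 CPM in the PND mice, and here too the groups overlapped. Its log2 fold change was -0.11 with a 95% interval from -0.33 to 0.11 and an edgeR adjusted p of 0.412. With the offsets the log2 fold change of Clu was 0.16, with an edgeR adjusted p of 0.298. For both genes control mouse 2 was the highest of the 4, and this mouse also had the highest sum of choroid plexus markers. Without it the log2 fold changes were 0.04 for Apoe and 0.01 for Clu. The part of that tissue in these levels was not tested.

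Lrp1 (ENSMUSG00000040249, chr10:127538161-127621148, minus strand) had 845 and 968 CPM in the control mice and 589 and 625 CPM in the PND mice, with no overlap. The log2 fold change was -0.58 with a standard error of 0.08 and an edgeR adjusted p of 0.00595. The control mice were further apart than for App or Apbb1, and the log2 fold change was -0.68 without control mouse 1 and -0.48 without control mouse 2, with the call kept in both. With the offsets the log2 fold change of Lrp1 was -0.25, with an edgeR adjusted p of 0.110.

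Ratios between members within a mouse do not depend on how the libraries were scaled. Per length, the ratio of Adam10 to Bace1 was 1.01 and 0.977 in control mice, against 1.44 and 1.49 in the PND mice. The ratio of Adam10 to App, the α-secretase to its substrate, was 0.0206 and 0.0186 in control mice, against 0.0345 and 0.0351 in the PND mice. For both ratios the PND mice stood above the control mice without overlap. The ratio of Apoe to its receptor Lrp1 was 21.4 and 21.2 in control mice, against 30.3 and 30.9 in the PND mice. The ratio of Apbb1 to App was 0.2504 and 0.258 in control mice, against 0.215 and 0.212 in the PND mice, and this difference was gone with GC offsets. The ratio of Apoe to Clu overlapped between groups, at 2.34 and 2.24 against 2.23 and 2.56. With 2 mice against 2, the two-sided exact permutation test cannot go below p = 0.333, which is the value it gave for each ratio without overlap, and 7 ratios were computed. With the GC and length offsets described next, the log2 change of the ratio of Adam10 to Bace1 went from 0.57 to 0.14, that of Adam10 to App from 0.83 to 0.36 and that of Apbb1 to App from -0.25 to 0.02, while that of Apoe to Lrp1 was 0.53 without and 0.56 with the offsets.

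Over all genes, the fold change between PND and control mice followed the GC content of the transcript. In the eighth of tested genes with the lowest GC content (28.7% to 42.3%) the median log2 fold change was 0.60, and it declined to -0.34 in the eighth with the highest (57.5% to 78.3%). Adam10, at 42.1%, lay in the lowest eighth, where 51.4% of genes were called higher. Apbb1 (60.2%), Apoe (59.5%) and Lrp1 (57.9%) lay in the highest, where 38.5% were called lower. App (50.9%) and Bace1 (50.0%) lay in the fifth eighth, with a median of -0.08 and 10.7% called lower. Mapt (52.5%) lay in the sixth, with a median of -0.17, and Psen2 (55.1%) and Clu (55.6%) in the seventh, with a median of -0.26.

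Read against genes of like GC content, the 9 genes took another order. The fold changes of Adam10, Bace1, Mapt and Psen2 were within 0.09 of the median of their eighth on the log2 scale. The difference from that median was -0.24 for App, -0.23 for Apbb1 and -0.23 for Lrp1. These 3 genes lay low in their eighths: 16.2% of the genes in that of App, 15.5% in that of Apbb1 and 14.9% in that of Lrp1 had a lower fold change. The difference was 0.29 for Apoe, whose fold change was above that of 83.3% of the genes of its eighth, and 0.14 for Clu.

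**Figure D3:**
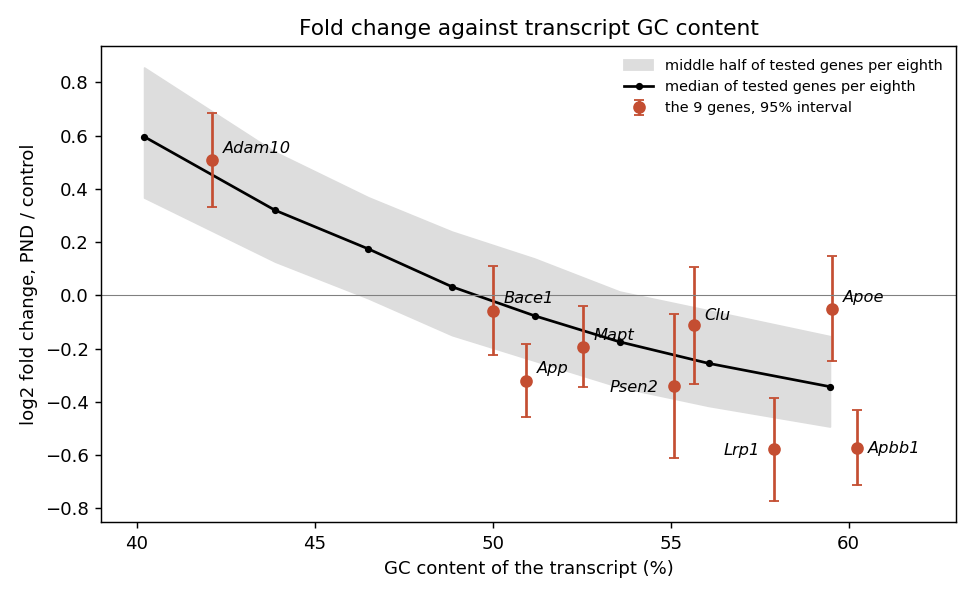
Log2 fold change of PND over control mice against the GC content of the transcript; the line joins the medians of the eighths of tested genes by GC content, the grey band holds the middle 50% of each eighth, and the red points are the 9 genes with 95% intervals. Adam10 lies on the line near 42.1% GC, App, Apbb1 and Lrp1 lie below the line, and Apoe and Clu lie above it.

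When each library's trends with GC content and length were fitted and entered the model as offsets, none of the 9 genes passed the edgeR test after adjustment. With these offsets 0.637% of all tested genes were called lower and 1.04% higher. At an unadjusted p under 0.05, 4 of the 9 differed: App, Apbb1 and Lrp1, which were lower in PND mice, and Apoe, which was higher, beside 21.5% of all genes in that fit. The log2 fold changes were -0.22 for App (adjusted p = 0.0945 by edgeR), -0.19 for Apbb1, -0.25 for Lrp1 and 0.31 for Apoe (adjusted p = 0.0951 by edgeR). For Adam10 the offsets left a log2 fold change of 0.14 (standard error 0.07), and for Mapt -0.03. Whether the GC trend arose in the tissue or in the libraries was not tested.

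The value for App depended on the transcript whose GC content was used. The longest coding transcript in GENCODE M21, of 8167 nt and 46.1% GC, runs beyond the deposited coordinates of the gene, and with it the log2 fold change was -0.46 with an edgeR adjusted p of 0.0285. With the APPRIS principal transcript, of 3176 nt and 51.4% GC, it was -0.21 with an edgeR adjusted p of 0.103. App was below 0 in all of these fits.

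**Figure D4:**
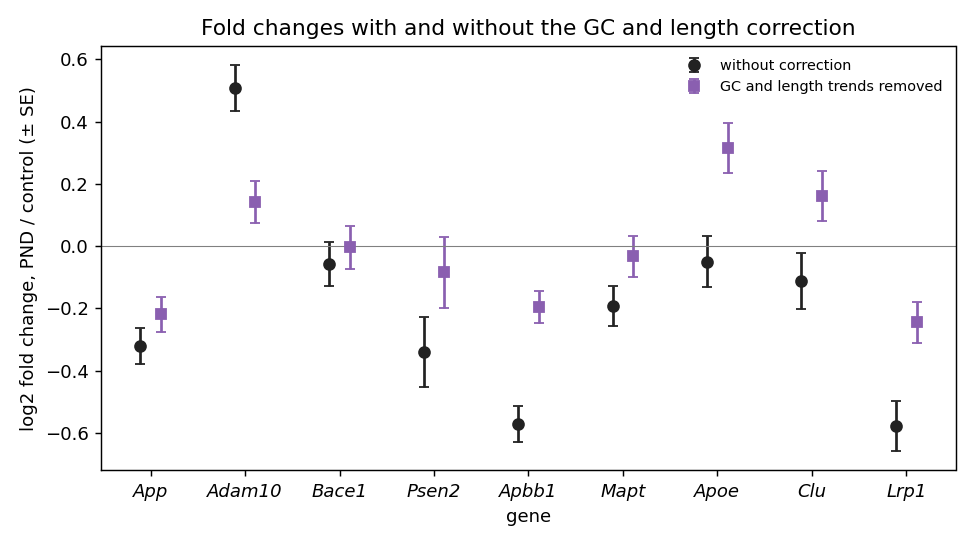
Log2 fold change of PND over control mice for each of the 9 genes, with its standard error, without correction (black circles) and with the GC and length trends of each library removed (purple squares). The offsets take Adam10 from 0.51 to 0.14 and Apbb1 from -0.57 to -0.19, and Apoe from -0.05 to 0.31.

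Other genes of the same pathways were read from 5 lists, which with the 9 genes hold 68 genes, of which 67 were tested. Among the 58 tested genes outside the set, 16 were called lower and 5 higher, beside 12.8% and 13.1% of all tested genes, and the median log2 fold change was -0.12. The same 12.8% and 13.1% apply to the counts of each list below. Of the DEGs among them, Gsk3a was lower, and Ttbk2 and Apod were higher. With the GC and length offsets none of the 58 was called by edgeR, beside 0.637% of all genes lower and 1.04% higher, and 6 were lower and 6 higher at an unadjusted p under 0.05, beside 21.5% of all genes. Of the 16 called lower, 4 had a log2 fold change above 0 with the offsets, among them Aplp1 (0.08) and Itm2c (0.05). Not all of the 21 calls were kept when a mouse was left out, which leaves 1 mouse in a group. Without control mouse 2 or PND mouse 2, calls became fewer both among these 58 genes and among all tested genes.

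The amyloid production list holds the precursor family and the secretases, 15 genes, of which 3 were called lower (App, Aplp1 and Ncstn) and 2 higher (Adam10 and Aph1b). Aplp1, a homolog of App, had 1423 and 1356 CPM in the control mice and 1200.1 and 1071 CPM in the PND mice. This gave a log2 fold change of -0.29 and an edgeR adjusted p of 0.0317, and the call was lost without control mouse 1 (0.0897), control mouse 2 (0.0557) or PND mouse 2 (0.103). Aplp2, the other homolog, had a log2 fold change of -0.09 and an edgeR adjusted p of 0.278. Ncstn and Aph1b encode further subunits of γ-secretase, and they moved apart, with log2 fold changes of -0.34 and 0.50, and of -0.20 and 0.20 with the offsets. The call of Ncstn was lost without control mouse 2 (0.115) or PND mouse 2 (0.0748).

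The list of adaptors and sorting factors had 5 of 14 tested genes lower (Apbb1, Apba1, Apba2, Mapk8ip1 and Itm2c) and none higher by edgeR at an adjusted p under 0.05. Rtn3, the 1 gene that was higher at an unadjusted p under 0.05, was called by DESeq2 and limma-voom. Itm2c, a BRI family protein that binds the precursor, had 947 and 959 CPM in the control mice and 767 and 821 CPM in the PND mice. Its log2 fold change was -0.26 with an edgeR adjusted p of 0.0232, and the call was lost without control mouse 1 (0.0508), control mouse 2 (0.0781) or PND mouse 1 (0.059). Rtn3, a reticulon that binds BACE1, had an edgeR log2 fold change of 0.19 and an adjusted p of 0.0524. With the offsets the log2 fold change of Rtn3 was 0.04 (edgeR adjusted p = 0.721). Mapk8ip1, Apba1 and Apba2 encode scaffold proteins that bind the tail of the precursor, as FE65 does, and all were lower, by log2 fold changes between -0.39 and -0.27. With the offsets the values were -0.02 for Mapk8ip1, -0.02 for Apba1 and -0.04 for Apba2. The call of Apba1 was lost without control mouse 2 (0.0963) or PND mouse 2 (0.0706).

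Of the 8 genes of amyloid clearance, 2 were lower (Lrp1 and Cst3) and 1 higher (Ide). Cst3, which encodes the protease inhibitor cystatin C, had 1076 and 1156 CPM in the control mice and 811 and 692 CPM in the PND mice. The log2 fold change of Cst3 was -0.57, with an edgeR adjusted p of 0.00712. Ide, the insulin-degrading enzyme, which also degrades amyloid-β, had 59.6 and 60.9 CPM in the control mice and 72.7 and 76.6 CPM in the PND mice. Ide thus had a log2 fold change of 0.31, with an edgeR adjusted p of 0.0227, which rose to 0.0844 without control mouse 1, 0.0739 without control mouse 2 and 0.0908 without PND mouse 2. With the offsets the log2 fold change was 0.02 for Ide (edgeR adjusted p = 0.879) and -0.27 for Cst3 (edgeR adjusted p = 0.113).

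Of the 18 genes of tau and its kinases and phosphatases, 7 were lower and 2 higher (Gsk3b and Ttbk2). The 2 forms of glycogen synthase kinase 3, which phosphorylate tau, moved apart. Gsk3a had 134 and 142 CPM in the control mice and 91.4 and 91.8 CPM in the PND mice, a log2 fold change of -0.59 with an edgeR adjusted p of 0.00446. Gsk3b had 148 and 147 CPM in the control mice and 194 and 206 CPM in the PND mice, a log2 fold change of 0.44 with an edgeR adjusted p of 0.00608. The transcript of Gsk3a has a GC content of 59.8% and that of Gsk3b 46.1%. With the offsets Gsk3a was at -0.22 (edgeR adjusted p = 0.108) and Gsk3b at 0.29 (edgeR adjusted p = 0.064), so the signs still differed and neither was called. Ttbk2, a tau tubulin kinase, had 47.8 and 40.5 CPM in the control mice and 73.6 and 80.05 CPM in the PND mice, a log2 fold change of 0.80, and of 0.46 with the offsets. Of the subunits of protein phosphatase 2A, which dephosphorylates tau, the scaffold Ppp2r1a had a log2 fold change of -0.49 (edgeR adjusted p = 0.00464) and the catalytic Ppp2ca one of -0.09 (edgeR adjusted p = 0.319). With the offsets Ppp2r1a was at -0.24 (edgeR adjusted p = 0.0818) and Ppp2ca at -0.32 (edgeR adjusted p = 0.0654), so neither was called and Ppp2ca was the lower.

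Of the 13 lipoprotein genes, which include Apoe, Clu and Lrp1, 3 were lower (Lrp1, Abcg1 and Lrpap1) and 1 higher (Apod). Lrpap1, the chaperone of Lrp1 in the secretory pathway, had 168 and 192 CPM in the control mice and 145 and 141 CPM in the PND mice. Its log2 fold change was -0.34 with an edgeR adjusted p of 0.0258, and the call was lost without control mouse 2 (0.104) or PND mouse 2 (0.0745). With the offsets the log2 fold change of Lrpap1 was -0.16. The call of Abcg1 was lost whichever mouse was left out, with adjusted p from 0.0645 to 0.167 by edgeR. Apod, an apolipoprotein of glia, had 134 and 128 CPM in the control mice and 201 and 379 CPM in the PND mice. Its log2 fold change was 1.15 (standard error 0.26), with an edgeR adjusted p of 0.0232. With the offsets it was 1.10 and no longer called (edgeR adjusted p = 0.0868). The PND mice were far apart for this gene, with the higher value in PND mouse 2, and without that mouse the log2 fold change of Apod was 0.62, while without control mouse 2 its edgeR adjusted p was 0.0524. PND mouse 2 also had the highest sum of the 7 endothelial markers, of which 2 were called higher, at 337 CPM against 228 to 247 CPM in the other mice. Its 8 oligodendrocyte markers, none of them called by edgeR, had the lowest sum, at 4043 CPM against 5482 to 6357 CPM. The part of these cells in the level of Apod was not tested.

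**Figure D5:**
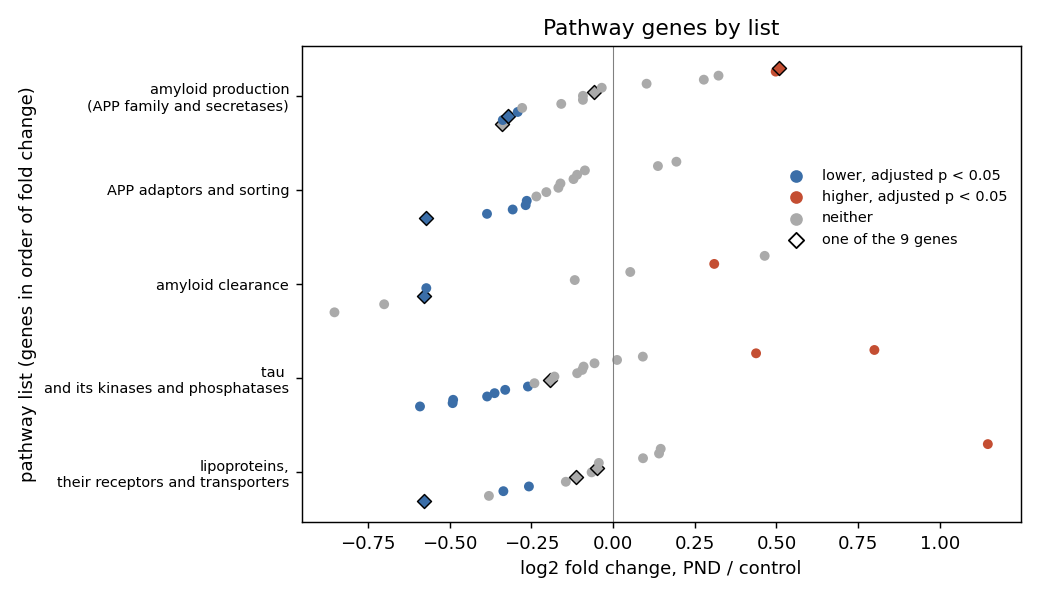
Log2 fold change of PND over control mice for the genes of the 5 pathway lists, in order of fold change within each list; blue marks genes called lower, red genes called higher and grey neither at an adjusted p of 0.05, and diamonds are the 9 genes. Apbb1 and Lrp1 are among the lowest of their lists, and Apod lies furthest to the right, at 1.15.

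The genes whose pattern over the 4 mice was most like that of a member were sought by the root mean square distance between centred log2 CPM values, among 10355 genes of at least 10 CPM outside the set. For App they were Slc9a8, Drc1 and 2410002F23Rik, with distances from 0.00362 to 0.00818, for Mapt they were Dnm2, Ciz1 and Cactin, and for Apoe they were Pde12, Mrpl44 and Parva. Such neighbours were common for App and Mapt, with 729 and 644 genes within 0.05, and fewer for Apoe, with 134. With 4 mice, likeness of this kind describes these libraries.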

How the data were processed

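Poly(A) RNA of each hippocampus was sequenced in pairs of reads and mapped to mm10 by the authors, who named HISAT, and the submitters' processing notes list Bowtie2 2.2.3, HISAT2 2.1.0, TopHat2 and HTSeq 0.6.0. The deposited values are read counts per gene, without normalization. The authors' own columns of scaled means, fold changes and p-values were not used. Genes were filtered with filterByExpr (edgeR 4.0.16, R 4.3.3, minimum count 10), scaled by TMM (factors 0.982 to 1.02) and tested with glmQLFit and glmQLFTest, with condition as the only term and Benjamini-Hochberg adjustment. Intervals are at 95% and are for the log2 fold change between the groups, with the spread between mice estimated partly from the other tested genes. GC and length trends were fitted with mgcv 1.9.3 (basis size 8). Gene models came from GENCODE M21, in which 93.2% of shared genes have the deposited coordinates.

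The members and lists were chosen with earlier results of these data known. Named genes were the members, the 2 most abundant genes and the DEGs of each list, and the 3 nearest profiles. Further genes called in counts of 5 or fewer, and Gsk3b, were named after their values were seen. The mice of each group differed by more than sampling noise, with a chi-square per degree of freedom of 12.3 and 7.77.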

Additional observations from a re-analysis of the deposited data

How the results depend on the processing

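The calls of App, Adam10, Apbb1 and Lrp1 kept their direction under all 18 alternatives, and each kept its side of the threshold in all those without GC offsets. The number of lower DEGs among the 9 genes was 2 with RLE size factors, upper quartile factors, DESeq2, no filter or a filter of 1 CPM. It also varied with the mouse left out. Lower DEGs were 2.25% of all tested genes in the main fit, and their share in these other fits is not given here. Without a filter 9 of the 58 listed genes outside the set were lower and 3 higher, while of all genes 1350 were lower and 1315 higher, against 2199 and 2250 with the filter. When a mouse was left out, 7 to 16 listed genes were lower, the lowest without control mouse 2 or PND mouse 2, where 1207 and 1347 of all genes were lower.

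With GC and length offsets the count of members and of listed genes called was 0 in both directions. Of all genes, 109 were called lower and 178 higher in that fit. The members' median log2 fold change was -0.033, and Apoe (0.31) and Clu (0.16) turned positive. The choice of transcript was added after seeing the data. With the longest transcript 1 member was lower and 0 were higher, and 0 listed genes were called, beside 98 of all genes lower and 156 higher. The members' median was then -0.031, and Apoe was at 0.32 and Clu at 0.16. With the principal transcript 0 members and 0 listed genes were called, beside 96 of all genes lower and 187 higher. The members' median was then -0.0067, and Mapt (0.11), Apoe (0.32) and Clu (0.16) were positive. Over mice left out Apoe ran from -0.15 to 0.041 and Clu from -0.24 to 0.015, both positive without control mouse 2.

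The mice share only a number. Over 17144 genes, the difference in log2 CPM between control mice 1 and 2 correlated at 0.22 with that between PND mice 1 and 2. With the replicate block 4 members were lower, Mapt with an edgeR adjusted p of 0.0334 among them, 1 was higher, and 2626 of all genes were lower and 2655 higher. With GC and length offsets and the replicate block together 3 members were lower (App, Apbb1 and Lrp1) and Apoe was higher (0.31, edgeR adjusted p = 0.00287), Clu was at 0.17, 5 listed genes were lower and 5 higher, 1021 of all genes were lower and 1417 higher, and the members' median was -0.033. Psen2 had 246 to 358 counts and the widest interval of the 9 genes.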
